A study of Oryza sativa Japonica Group with 20 samples.

Results

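The 33 loci described here were chosen from 57624 rice loci by their levels in shoots of seedlings held in 80 µM arsenite for 24 h. These levels stood well above those in the other shoot libraries. A locus was selected when its level in that shoot library was at least 20 RPKM and at least 4 times the highest of the other 4 shoot values plus 1. RPKM is a read number scaled to transcript length and library size. Of the 3239 loci at 20 RPKM or more in that library, 33 met the ratio, a share of 1.02%. The shoot values therefore chose the loci, and their high level in that library is a description and not a result.

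Arsenite is the trivalent form of arsenic that rice roots take up, partly through silicon transporters, and it binds thiol groups of proteins. Many plant transcripts also follow the time of day. LHY, a clock factor, peaks around dawn, whereas GI and the PRR genes peak later in the day or in the evening. Nitrate assimilation, which begins with nitrate reductase, is under light, clock and nitrate control.

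Poly(A) RNA was profiled in roots and in shoots of 14-day-old seedlings of the rice strain Nipponbare. Seedlings grew hydroponically in a Hoagland solution and received sodium arsenite at lights-on. For each tissue there was 1 library from untreated seedlings at 0 h and 1 each at 20 µM and 80 µM after 6 h and after 24 h, which makes 5 libraries per tissue and 10 in all. No group had a replicate, so differences between libraries have no replicate check, and the labels do not give the number of plants behind a library. Lights-on was thus the hour of day of the untreated and of the 24 h harvest, the 6 h harvest fell within the light period, and no untreated library at 6 h was analysed.

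Some libraries stood apart. The deposited tables of both 20 µM shoot libraries carry each other's codes in their headers, so labels and codes disagree for them. Treated libraries are named below by dose and hours as labelled, 20/6 for 20 µM and 6 h, and in the same way 20/24, 80/6 and 80/24. The rule treats the 4 other shoot libraries alike, and exchanging those 2 would leave the 33 loci as they are. Without the 20/6 library the rule found 71 loci and without the 20/24 library 37, both sets holding all 33. Without the untreated library it found 72. Shoots at 80/24 had 9129 loci at 5 RPKM or more, against 11792 to 12248 in the other shoot libraries. Against untreated shoots, the median-ratio scaling factor of that library differed by -0.64 on the log2 scale, against -0.09 to 0.02 for the other 3. With the values divided by these factors the same rule found 157 loci, among them all 33. The 7 photosynthesis markers were at 53.7 RPKM or more in every shoot library, and of 6 root uptake markers LSI2, a silicon exporter, was listed at 0 in all of them. The silicon channel LSI1 was at 1.9 to 7.5 RPKM in shoots and the metal transporter NRAMP5 at 1.0 to 5.7, while the other 3 stayed at 2.1 or less. Among root libraries, 80/6 stood furthest apart, with 8016 loci at 5 RPKM or more against 9678 to 12515 and a scaling factor of 0.613 against 0.934 to 1.264.

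Over the 33 loci the level in shoots at 80/24 ran from 20.9 to 457.3 RPKM, with a median of 50.6. Between 20 and 50 RPKM lay 15 loci, between 50 and 100 RPKM lay 9, and 9 were above 100 RPKM. Their ratio to the highest other shoot value plus 1 ran from 4.01 to 10.0, with a median of 5.07. Together they made up 0.84% of the summed RPKM of that library and between 0.0292% and 0.133% of the other shoot libraries. In bulk tissue, more cells that express a gene cannot be told apart from more RNA per cell.

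**Figure D1:**
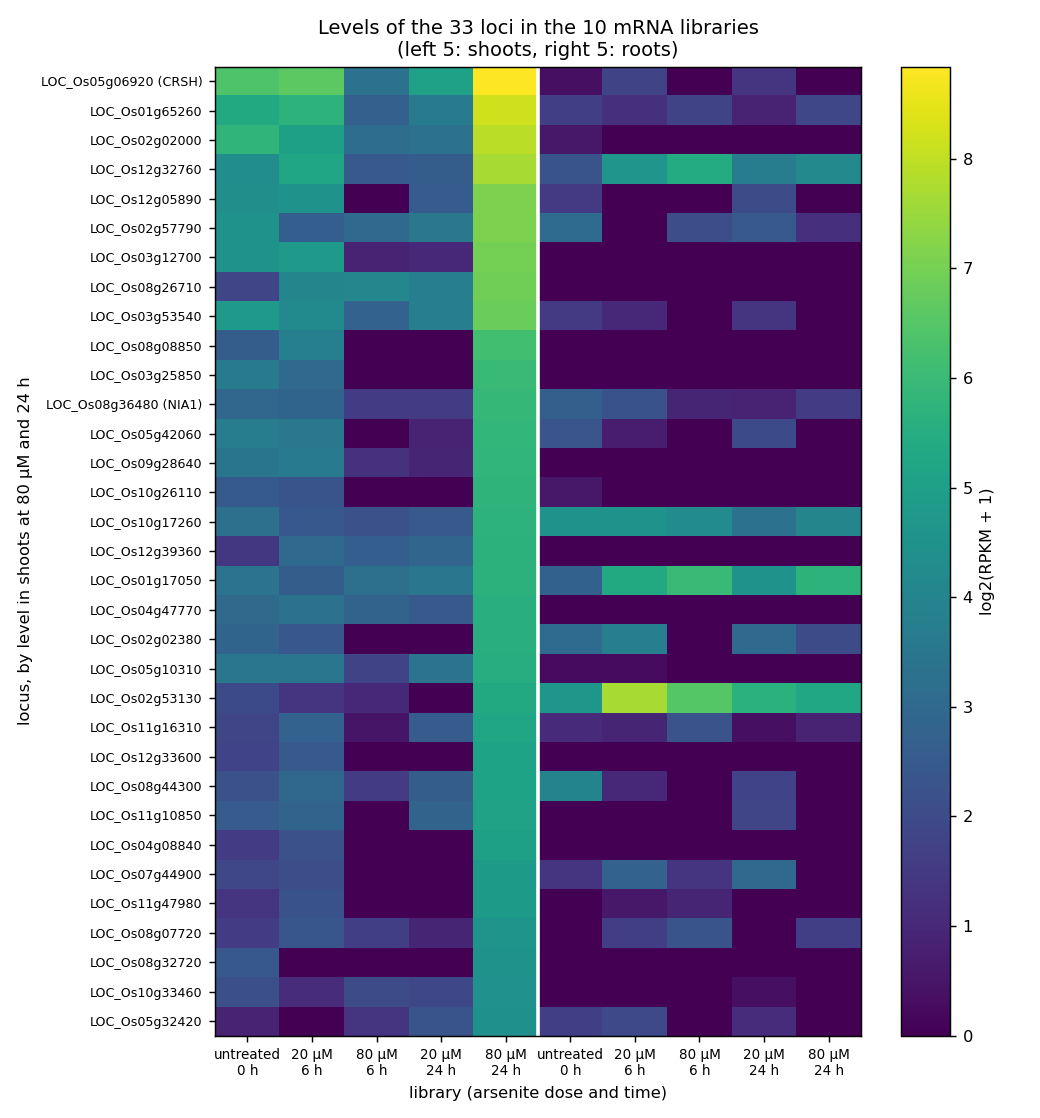
Each row is 1 of the 33 loci, each column 1 of the 10 mRNA libraries, and the colour is log2(RPKM + 1). The shoot column at 80/24 is the brightest of the shoot columns in every row by choice of the loci, and most root cells are dark, at or near 0.

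Few of these loci can be named here. The deposited tables give MSU locus identifiers without names, and 2 of the 33 could be paired with a gene name whose symbol the RefSeq table places on the same chromosome. That table holds no MSU identifier, so these names rest on general knowledge of the loci. No locus of 22 gene lists on stress, metal, hormone, defence and clock genes was among the 33. With 33 chosen from 57624 loci, few or none of the 346 list entries would be met in any case. The 0 is thus no result about the listed genes.

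LOC_Os05g06920, the locus with the highest level, lies among the CRSH genes. CRSH proteins are chloroplast RelA/SpoT homologues that make the nucleotide alarmone ppGpp and are activated by calcium in plants. It was recognised only after the 33 loci had been listed. The locus had 457.3 RPKM in shoots at 80/24, 83.4 in untreated shoots, 97.3 in the 20/6 library, 9.1 at 80/6, and 32.2 in the 20/24 library. It was thus already well above 50 RPKM in untreated shoots, and lowest at 80/6. In roots it reached at most 2.5 RPKM and was listed at 0 in both 80 µM libraries.

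The neighbouring CRSH loci had other levels. LOC_Os05g06890 was at 29.9 RPKM in untreated shoots, 25.2 and 14.5 in the 20/6 and 20/24 libraries, 10.1 at 80/6 and 59.9 at 80/24. It was also highest at 80/24 and lowest at 80/6, with a smaller span. LOC_Os05g06940 did not exceed 2.4 RPKM in any shoot library and had 9.3 to 34.7 RPKM in roots. Similar genes may share reads, and no source used here says how shared reads were counted.

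NIA1 (LOC_Os08g36480), a nitrate reductase that catalyses the first step of nitrate assimilation, was the other named locus. It had 58.4 RPKM in shoots at 80/24, 6.5 in untreated shoots, 6.2 in the 20/6 library, 2.0 at 80/6, and 1.9 in the 20/24 library. The highest value was 8.98 times that of untreated shoots. Root values of NIA1 were 5.4 RPKM untreated, 3.7 and 0.9 at 6 h in 20 µM and 80 µM, and 0.8 and 1.9 at 24 h.

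Other genes of nitrate and ammonium assimilation were then looked at, in a list drawn up after the values had been seen. Of its 11 genes, 6 were measured in shoots at 5 RPKM or more in at least 1 library. NIA1 is 1 of the 6, and the rule fixed its place. Of the other 5, 2 were at least 2-fold above the highest other shoot library on the log2(RPKM + 1) scale, beside 3.8% of 15408 loci, and none was at least 2-fold below the lowest, beside 17.8%. The 2 were GLN1;2, a cytosolic glutamine synthetase, and AMT1;1, an ammonium transporter. GLN1;2 was itself added after its values had been seen, so these counts are a description and no measure of the pathway. AMT1;1 had 132.0 RPKM in shoots at 80/24 and 23.6 to 57.0 in the other shoot libraries. GLN1;2 had 19.7 RPKM there and 3.7 to 9.0 in the others.

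The plastid enzymes that use the ammonium were highest in the same library but stayed under that fold. GS2, the plastid glutamine synthetase, had 247.8 RPKM there and 71.3 to 144.2 in the other shoots. Fd-GOGAT, the ferredoxin-dependent glutamate synthase, had 204.8 RPKM and 53.1 to 106.2. GLN1;1, another cytosolic glutamine synthetase, was lowest there, at 53.3 RPKM against 55.4 to 86.2. In roots GS2 was at 25.2 RPKM untreated, 0.5 and 1.3 at 80 µM, far below its shoot levels at the same dose.

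**Figure D2:**
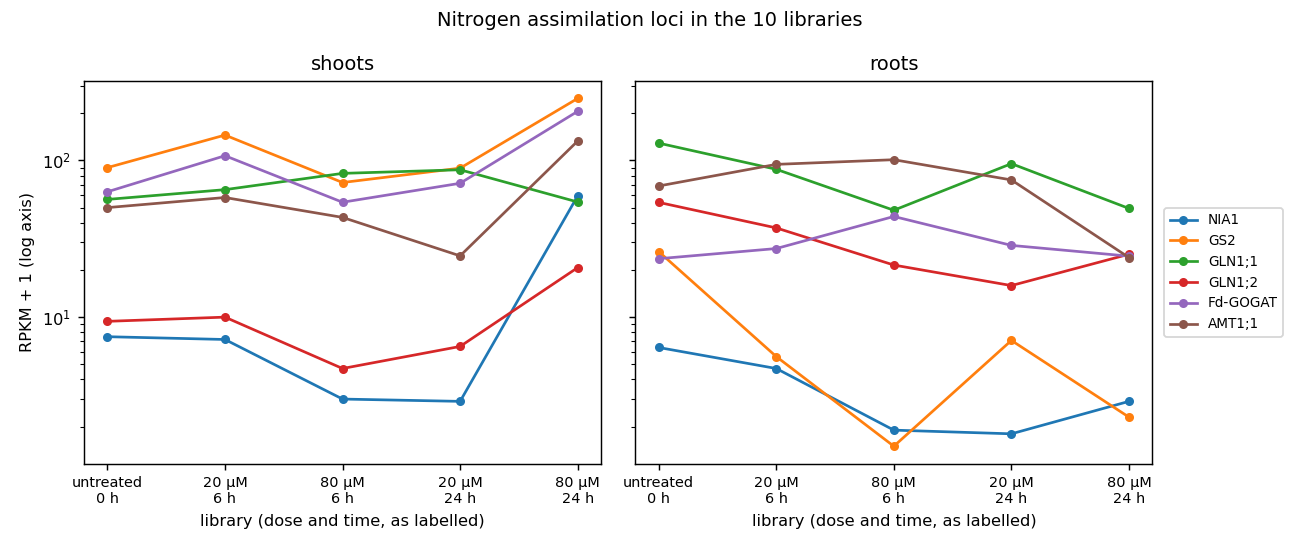
RPKM + 1 on a log axis for the 6 measured nitrogen assimilation genes in the 5 shoot libraries (left) and the 5 root libraries (right), with lines that join the values of 1 gene. NIA1 goes from at most 6.5 RPKM in the other shoot libraries to 58.4 at 80/24, and GLN1;1 does not share this pattern.

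The remaining 31 loci are given by identifier. LOC_Os01g65260 had 295.7 RPKM in shoots at 80/24, against 40 untreated, 51.9 and 11.2 in the 20/6 and 20/24 libraries, and 5.5 at 80/6. LOC_Os02g02000 had 241.9 RPKM, against 54.1 untreated, 31.8 and 8.9 in the same libraries, and 7.9 at 80/6. Like the CRSH locus, both were appreciable without arsenite and lowest at 80/6.

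LOC_Os12g32760 was at 203.5 RPKM against at most 36.2 in the other shoots, LOC_Os12g05890 at 136.9 against at most 22.1, and LOC_Os03g12700 at 127.2 against at most 25.7. The last of these had only 0.8 RPKM at 80/6 and 1.0 in the 20/24 library. In all 3 the lowest shoot value was at 80/6. LOC_Os03g53540 (115.1 RPKM) was lowest at 80/6 too, with 5.9 RPKM, and LOC_Os08g08850 (71.5 RPKM) was listed at 0 both there and in the 20/24 library.

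The other loci of the 10 highest differed from these. LOC_Os08g26710 had 120.3 RPKM in shoots at 80/24, 2.6 in untreated shoots, 15.6 in the 20/6 library, 15.9 at 80/6 and 12.8 in the 20/24 library. All 4 treated shoot libraries were above the untreated one, and the highest was 46.3 times it. LOC_Os12g39360 followed the same course at lower levels, with 1.7 RPKM untreated, 7.1 and 5.2 at 6 h as labelled, 6.4 in the 20/24 library and 50.6 at 80/24. Both were listed at 0 in all 5 root libraries. LOC_Os02g57790 had 135.3 RPKM, 22 untreated and 5.3 to 10.5 in the other 3 shoot libraries.

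The largest ratio to the highest other shoot value plus 1, 10.0, belonged to LOC_Os02g53130, at 40 RPKM against 3.0 untreated and 1.5, 1.0 and 0.0 elsewhere. LOC_Os10g26110 followed with a ratio of 9.33, at 53.2 RPKM against 4.7 untreated, 3.9 in the 20/6 library and 0 in the remaining 2 shoot libraries. NIA1 came next with 7.79 and LOC_Os08g26710 with 7.12. The other 6 of the 10 largest were LOC_Os04g08840, LOC_Os07g44900, LOC_Os02g02380, LOC_Os12g39360, LOC_Os12g33600 and LOC_Os12g05890, with ratios from 5.93 to 6.80.

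Near the thresholds the choice was close. LOC_Os05g10310 was nearest inside the factor with a ratio of 4.01, followed by LOC_Os08g32720, LOC_Os05g32420, LOC_Os03g53540 and LOC_Os05g42060 up to 4.32. Just outside were LOC_Os05g50850 at 3.96, LOC_Os07g02120, LOC_Os12g10630, LOC_Os09g10690 and, at 3.85, LOC_Os09g04360. The lowest levels inside were 20.9 RPKM for LOC_Os05g32420 and 21.4 for LOC_Os10g33460, then LOC_Os08g32720, LOC_Os08g07720 and LOC_Os11g47980 up to 27.3. A further 79 loci had the ratio but lay under 20 RPKM, nearest of them LOC_Os01g44390 at 19.0, LOC_Os05g12410 at 18.5, LOC_Os01g03290 at 17.3, LOC_Os07g28010 at 16.7 and LOC_Os03g22634 at 16.4.

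The 33 loci were also looked at by their place in the genome. They fell on 11 chromosomes, with none on chromosome 6 and up to 6 on chromosome 8. None of their 66 neighbouring rows in the tables was itself one of the 33. With 33 chosen from 57624 loci, hardly any would be met among 66 rows in any case. Of those neighbours 23 were listed at 0 in all shoot libraries, and 2 reached a ratio of 2. Shares over all loci are not given for these counts, nor loci per chromosome, so they are a description. LOC_Os11g10840, next to LOC_Os11g10850 (33.4 RPKM), had a ratio of 9.4. It was at 9.4 RPKM in shoots at 80/24, under the minimum level, and listed at 0 in all other shoot libraries. LOC_Os11g47980 (27.3 RPKM) lies next to RCA (LOC_Os11g47970), Rubisco activase, at 1810.0 RPKM in shoots at 80/24. Reads shared with that neighbour cannot be told apart here. Other neighbours were abundant there too, such as LOC_Os12g33610 at 144.2 RPKM and LOC_Os09g28630 at 114.8. They lie next to LOC_Os12g33600 (34.2 RPKM) and LOC_Os09g28640 (55.0 RPKM), and the same limit holds.

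The order of the other 4 shoot libraries was not fixed by the rule, although the same libraries set its ceiling. This comparison was chosen after the values had been seen. The other loci at 20 RPKM or more were not held under that ceiling, so their shares are no matched background. The counts below are a description. The median over the 33 loci was 6.2 RPKM in untreated shoots, 6.2 in the 20/6 library, 1.5 at 80/6, and 3.9 in the 20/24 library. In 21 of the 33 loci the untreated library and the 20/6 library were both above the other 2, against 36.8% of the 3239 loci at 20 RPKM or more. The opposite order held for 1 of the 33, LOC_Os05g32420, against 18.6% of those loci, and the remaining 11 had another order. The highest of the 4 was the untreated library for 13 loci, the 20/6 library for 17, the 20/24 library for 2 and that at 80/6 for 1.

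**Figure D3:**
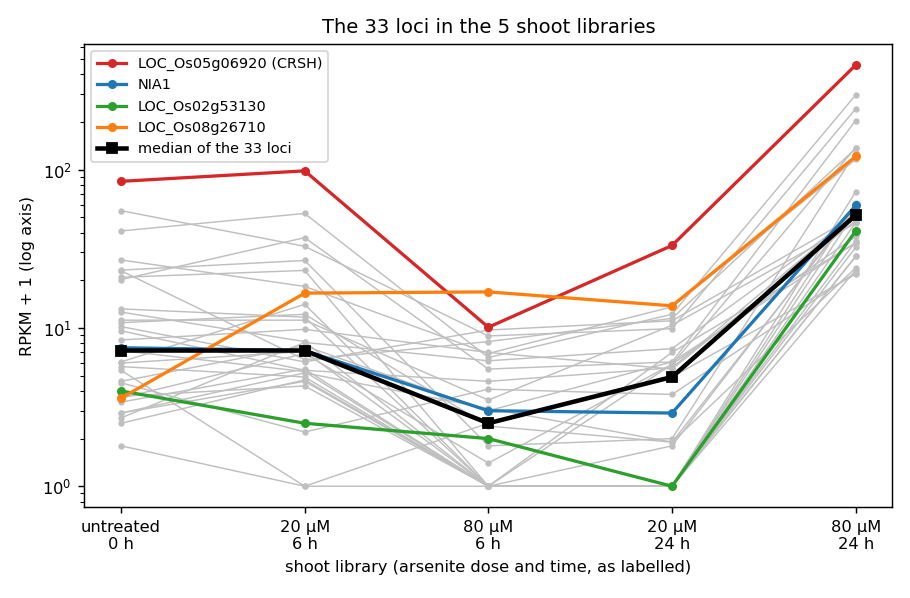
RPKM + 1 on a log axis in the 5 shoot libraries for each of the 33 loci (grey), 4 of them in colour, and their median (black squares), with lines that join the values of 1 locus. The median goes from 6.2 RPKM untreated to 1.5 at 80/6 and to 50.6 at 80/24, whereas LOC_Os08g26710 is lowest in untreated shoots.

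Set against untreated shoots, the loci were counted where they reached 5 RPKM in either library and differed by at least 2-fold on the log2(RPKM + 1) scale. At 80/6, 17 of 21 such loci were lower, against 12.6% of all loci, and 2 were higher, against 9.38%. Their median difference was -2.17 (log2), against 0.03 over all loci. In the 20/24 library, 13 of 22 were lower, against 12.3%, and 2 were higher, against 10.3%, with a median of -1.36 against -0.04. In the 20/6 library, 1 of 23 was lower, against 9.92%, and 3 were higher, against 6.2%, with a median of 0.18. These 3 comparisons share the untreated library, and for 13 loci that library set the ceiling of the rule. The loci that pass the minimum with a high untreated value had more room to be lower. Many reached 5 RPKM only in untreated shoots and so could not be counted as higher. The 2 that were higher at 80/6 did not reach 5 RPKM in untreated shoots. These counts are thus a description, and the shares over all loci are no matched background.

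The same shoot libraries differed in their clock genes. LHY had 114.6 RPKM in untreated shoots, 121.1 in the 20/6 library, 48.8 at 80/6, 45.8 in the 20/24 library, and 248.1 at 80/24. The untreated and 20/6 libraries were thus above the other 2 among the 4, the division seen in the 21 loci. GI, which acts later in the day, ran the other way, with 18.5, 26.5, 98.4, 77.3 and 3.1 RPKM in the same sequence of libraries. Likewise PRR1 had 1.2 RPKM and PRR95 1.6 RPKM in shoots at 80/24, against 5.2 to 28.2 and 9.7 to 49.5 in the others. Of the 8 clock genes listed, LHY alone was at least 2-fold above the highest other shoot library, beside 3.8% of all loci. At least 2-fold below the lowest were 5, beside 17.8%.

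The balance of LHY over the mean of GI, PRR1, PRR95 and PRR73, as a difference of log2(RPKM + 1), was 5.82 in shoots at 80/24, 3.06 untreated and 2.94 in the 20/6 library. It was -0.08 at 80/6 and -0.12 in the 20/24 library. By the codes in the file headers, the 20/6 library would be the 24 h one, and the order of the 21 loci would then read as both lights-on libraries above both 6 h libraries. In roots this balance was 1.78 untreated, 1.44 at 20/24, and -1.31, -1.74 and -1.33 at 20/6, 80/6, and 80/24. At 80/24 the balance was thus the highest of all shoot libraries, while in roots it was close to that of the 6 h libraries. The part of the time of day in the levels of the 33 loci was not tested.

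**Figure D4:**
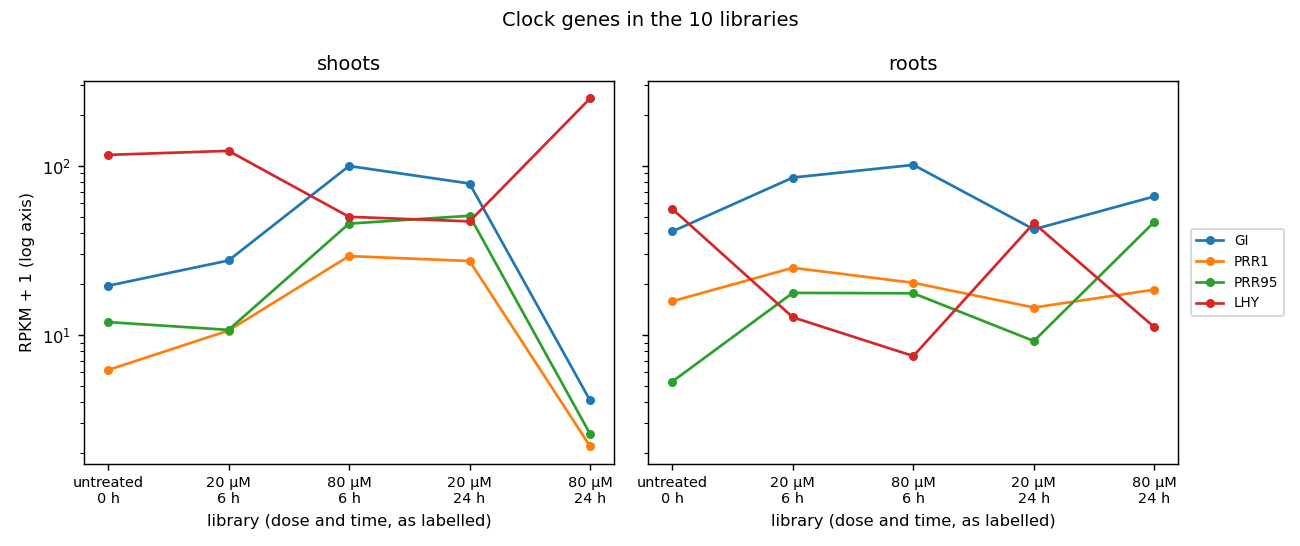
RPKM + 1 on a log axis for LHY, GI, PRR1 and PRR95 in the 5 shoot libraries (left) and the 5 root libraries (right), with lines that join the values of 1 gene. In shoots at 80/24 LHY is at 248.1 RPKM and the other 3 are at 3.1 RPKM or less.

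The 22 lists, most of them of stress, defence and metal genes with some of clock, photosynthesis, reference and root uptake genes, stood near the shares over all loci. In them 269 of 346 entries were measured in shoots, and 8 of them (2.97%) were at least 2-fold above the highest other library, LHY among them, and 44 (16.4%) at least 2-fold below the lowest at 80/24, beside the shares of 3.8% and 17.8% over all loci. Among 11 measured small heat shock proteins, which keep unfolding proteins soluble, none was past that fold on either side. Of 7 measured endoplasmic reticulum chaperones, 5 were at least 2-fold below the lowest other shoot library. Glutathione S-transferases, which conjugate glutathione to toxic compounds, had 2 of 23 above and 6 below.

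The root libraries played no part in the choice of the loci. In roots the median level was 0.5 RPKM untreated, 0.2 at 20/6, 0.3 at 20/24, and 0 at 80 µM at both times. At 5 RPKM or more in at least 1 root library were 9 of the 33, against 84.6% of the 3239 loci at the same shoot minimum. Listed at 0 in all 5 root libraries were 10 of the 33, against 1.7%. The remaining 14 lay between. The 3239 loci hold many that were also high in other shoot libraries, which the 33 could not be.

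The 10 loci listed at 0 in every root library were LOC_Os03g12700, LOC_Os08g26710, LOC_Os08g08850, LOC_Os03g25850, LOC_Os09g28640, LOC_Os12g39360, LOC_Os04g47770, LOC_Os12g33600, LOC_Os04g08840 and LOC_Os08g32720. They spanned 22.2 to 127.2 RPKM in shoots at 80/24. A value of 0 at 1 decimal does not exclude a low level, since the absolute depth of the libraries is unknown.

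**Figure D5:**
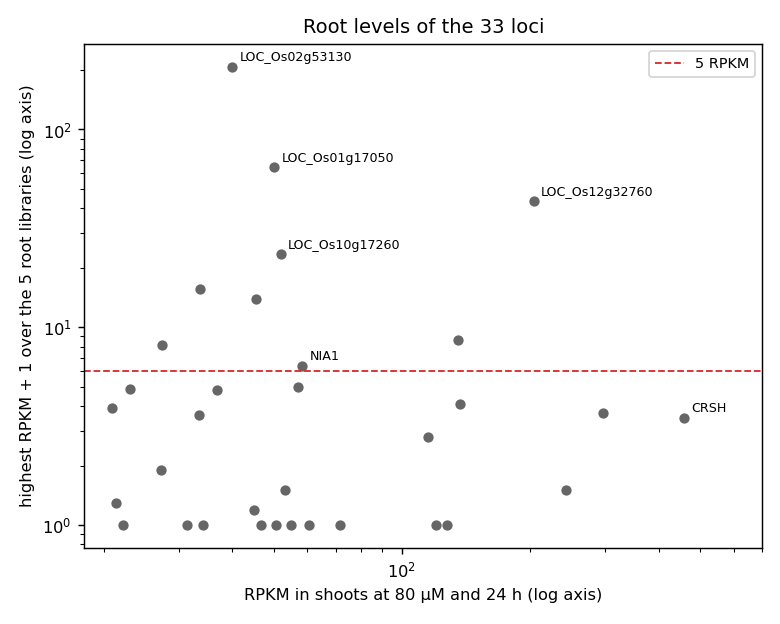
Each point is 1 of the 33 loci, with its RPKM in shoots at 80/24 on the horizontal log axis and its highest RPKM + 1 over the 5 root libraries on the vertical log axis. The 9 loci at 5 RPKM or more in roots lie on or above the dashed line, and 10 lie at the floor.

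A few loci were abundant in roots. LOC_Os02g53130 had 24.9 RPKM in untreated roots, 206.2 and 48.5 at 20 µM at the earlier and the later time, and 91.0 and 37.9 at 80 µM. All treated root libraries were above the untreated one, and 3 of the 5 root values lay above the 40 RPKM of shoots at 80/24. LOC_Os01g17050 had 5.7 RPKM in untreated roots, 40.8 and 21.5 at 20 µM at the earlier and the later time, and 63.3 and 52.0 at 80 µM. Its treated root libraries were also all above the untreated one, both 80 µM values above both 20 µM values. In shoots it was at 5.1 to 10.1 RPKM except for 50.2 at 80/24.

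LOC_Os12g32760 showed the same direction in roots, from 3.9 RPKM untreated to 23.3 and 12.5 at 20 µM at the earlier and the later time and 42.3 and 16.7 at 80 µM. LOC_Os10g17260, at 22 RPKM untreated and 8.9 to 22.4 in treated roots, did not exceed its untreated level appreciably. After these 4, the highest means over both 80 µM root libraries were 3 RPKM for LOC_Os08g07720 and 2.6 for LOC_Os01g65260. LOC_Os02g57790 and LOC_Os11g16310 had 2.3, LOC_Os02g02380 1.6 and NIA1 1.4. LOC_Os08g44300, the locus furthest below its untreated root level at 80 µM, had 14.7 RPKM untreated and 0 to 2.4 in treated roots.

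Against untreated roots, only 8 or 9 of the loci could be counted. At 20/6, 4 of 9 were at least 2-fold higher, against 13.6% of all loci, and 2 lower, against 16.9%. At 80/6, 3 of 8 were higher, against 19%, and 4 lower, against 48.7%. At 20/24, 3 of 9 were higher, against 11.4%, and 3 lower, against 16.6%. At 80/24, 2 of 8 were higher, against 17.5%, and 4 lower, against 35.9%. After median-ratio scaling 5 of 9 were higher and 2 lower at 80/6, and 2 of 7 were lower at 80/24. With so few loci, these shares are loose, and all 4 comparisons share the untreated library. LOC_Os02g53130, LOC_Os01g17050 and LOC_Os12g32760 supply most of the higher counts. The 4 lower at 80/6 and at 80/24 were LOC_Os02g02380, LOC_Os02g57790, LOC_Os08g44300 and NIA1. In both comparisons they reached 5 RPKM only in untreated roots, so they could not be counted as higher. LOC_Os07g44900, higher at 20 µM at both times, reached 5 RPKM only in the treated library and could not be counted as lower. The counts are thus a description.

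Between the doses in roots, 6 loci could be counted at each time. At 6 h, 3 of 6 were at least 2-fold lower at 80 µM than at 20 µM, against 38.3% of all loci, and 0 were higher, against 15.2%. After scaling by median ratios 1 of 9 was lower and 5 were higher, so this direction depended on the scaling. At 24 h, 1 of 6 was lower, against 25.4%, and 1 was higher, against 15.7%. At both times LOC_Os02g02380 and LOC_Os07g44900 reached 5 RPKM only in the 20 µM library, so they could not be counted as higher. The counts between the doses are thus a description.

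A limma model of the 4 treated root libraries, with dose and time as terms, tested 13863 loci. It called 749 higher at 80 µM, 5.4%, and 1235 lower, 8.91%, at an adjusted p of 0.05. After median-ratio scaling the split turned to 1148 higher and 652 lower. Its residual is the change of the dose difference between the times, with 1 degree of freedom before moderation, and not a spread between replicates. In simulated data of this design with 200 changed loci, 23.5% of the calls were of unchanged loci. The adjusted p values were thus too small in that setting, and the false share among the real calls is unknown.

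Of the 33 loci 6 were tested, and 1 was called. LOC_Os02g02380 was lower at 80 µM by limma, with a log2 difference of -2.38, a standard error of 0.73 and an adjusted p of 0.0355. Its root values were 12.9 and 7.2 RPKM at 20 µM and 0 and 3.2 at 80 µM at the earlier and the later time. The call was lost in 5 of 6 alternative fits, where its adjusted p by limma was 0.0527 to 0.126, and held with a pseudocount of 5, where it was 0.00882. None of the 6 was called higher, and 2 of the 6 had an unadjusted p under 0.05 by limma. These 2, LOC_Os02g02380 and LOC_Os07g44900, reached the minimum of 5 RPKM only in the 20 µM libraries. The filter thus favoured a lower level at 80 µM for them, and the call is no support for a dose difference. Without the filter their adjusted p by limma was 0.126 and 0.105. The 5 loci other than LOC_Os02g02380 did not pass. LOC_Os01g17050 had a difference of 0.93 with a standard error of 0.49 and an adjusted p of 0.211 by limma, and LOC_Os07g44900 one of -2.20 with an adjusted p of 0.0815.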

How the data were processed

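One mRNA library per tissue, dose and time was analysed, 10 in all; the 10 miRNA libraries were not used here. RNA was, per the labels' protocols, isolated with TRIzol, enriched with oligo(dT), copied from random hexamers and sequenced as paired-end reads on an Illumina Genome Analyzer. The authors deposited RPKM values for 57624 loci, rounded to 1 decimal. BWA is named in the submitters' processing notes; no source used here gives its version, the build, the annotation or the counting program. Absolute depth is unknown, so no counting interval is given, and values listed at 0 are not taken as absence.

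The loci and the gene lists were chosen with earlier results of these data known. The nitrogen assimilation and RelA/SpoT lists, the comparison of the order of shoot libraries and the fit without an intensity trend were chosen after values had been seen. The genes named were the loci in the lists, the 10 with the highest level, the 10 with the largest ratio, the 5 on each side of each threshold, and the 10 highest and the lowest in roots at 80 µM, with up to 3 further genes per list. GLN1;1 and GLN1;2, PRR95, PRR73, LOC_Os08g44300 and the neighbouring CRSH loci were added after their values had been seen. The reference symbols used to match LHY and LUX, both already listed, were also found then. Of 360 listed identifiers, 282 carried a symbol, and 179 of those symbols had 1 place on the same chromosome of the RefSeq table (ASM3414082v1).

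Differences were taken as log2(RPKM + 1), which understates the change of low loci, over loci at 5 RPKM or more in at least 1 library compared. Single libraries were compared by a 2-fold count with no test. The dose in roots was fitted over all loci with limma 3.58.1 in R 4.3.3 (intensity trend, Benjamini-Hochberg adjustment). In simulated data with 200 changed loci, 42% of log2 changes of 2, 90% of 3 and 100% of 5 and of 8 were recovered, with 51 false calls among 217. Alternatives covered the rule's factor and minimum, pseudocounts of 0.1 and 5, no filter, median-ratio scaling and leaving out each shoot library.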

Additional observations from a re-analysis of the deposited data

Results flagged for a closer look

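LOC_Os02g57790 differed in the direction of its dose difference in roots between the times. On the log2(RPKM + 1) scale, 80 µM minus 20 µM was 2.1 at 6 h, from 0.0 to 3.3 RPKM, and -1.26 at 24 h, from 4.5 to 1.3 RPKM. All 4 values lie under 5 RPKM, each from 1 library, and the difference between the times was not tested.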

How the results depend on the processing

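No paired analysis was possible because every group has 1 library, so no replicate numbers can pair; the limma fit sets the doses against each other within each time. Of 83 recomputed counts, 47 stayed within 1.5 times the reported one and 36 did not; the cause was not tested unless the setting itself gives it. The rule found 393 loci with a factor of 2, 2 with a factor of 8, 13 with a pseudocount of 5 and 157 after median-ratio scaling. Leaving out 1 of the other 4 shoot libraries gave 35 to 72 loci, 72 without the untreated library, 71 without the 20/6 library, 35 without 80/6 and 37 without the 20/24 library.

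In roots against untreated, without the filter on low values, 4 of the loci were lower at 20/6, 5 higher and 8 lower at 80/6, 5 higher at 20/24 and 9 lower at 80/24. With a pseudocount of 5, 2 were lower at 80/6, 1 was higher and 1 lower at 20/24, and 2 were lower at 80/24. After median-ratio scaling, 5 were higher and 2 lower at 80/6 and 2 lower at 80/24.

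Between the doses, without the filter, 2 were higher and 8 lower at 6 h, and 3 higher and 9 lower at 24 h. After scaling, 5 were higher and 1 lower at 6 h. With a pseudocount of 0.1, 2 were lower at 24 h.

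By limma, 364 loci were higher and 378 lower at 80 µM without the filter, 1148 and 652 after scaling, and 444 and 677 without the intensity trend. Of the 33 loci, 0 were called lower with a pseudocount of 0.1, without the filter, after scaling, against all other root libraries or without the trend; 2 to 7 had an unadjusted p under 0.05 there. With 1 decimal and unknown depth, loci under about 5 RPKM give imprecise differences.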

Other observations

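Below the minimum level, LOC_Os07g28010 had the largest ratio of the 5 loci nearest that threshold. It was at 16.7 RPKM in shoots at 80/24 and listed at 0 in the other 9 mRNA libraries. It was chosen after its values had been seen.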
